A study of Mus musculus with 4 samples.

Results

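Cxcl9-expressing macrophages of MC38 tumours were selected on measured transcripts, from single-cell libraries of tumour-infiltrating CD45+ cells, as the barcodes that carried at least 3 UMIs of Cxcl9 beside macrophage transcripts. A UMI (unique molecular identifier) stands for 1 captured transcript. Of 47276 deposited barcodes, 44184 were kept because they had 200 genes or more and no more than 20% of their UMIs from mitochondrial genes. A barcode entered the gate when it had at least 1 UMI of Csf1r and at least 10 UMIs of C1qa, C1qb and C1qc together per 10000 UMIs. It also had under 2 UMIs each of C3, Fcrls and Mmp13, no UMI of Lyve1, Cd209f, Flt3, Cd3d, Cd3e or Cd3g, and not both Mki67 and Top2a. This gate held 8763 macrophages, of which 1171 had at least 3 Cxcl9 UMIs and are called members below. Another 1259 had 1 or 2 Cxcl9 UMIs, and 6333 had none and served as the comparison population (Cxcl9-zero macrophages).

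The tumours had grown in knockout mice (KO) or in WT mice, with 2 libraries per genotype. MC38 is a transplantable mouse colon carcinoma line. All tumours were digested with collagenases, dispase and DNase, enriched for CD45 on magnetic beads and captured on the 10x Genomics platform with 3′ chemistry, according to the labels. The strain, age and sex of the mice, and the number of animals behind a library are not given in the sources used here. Each p-value therefore sets a difference against the spread between these libraries, and that spread may be technical.

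CXCL9 is a chemokine that macrophages and dendritic cells make in response to interferon gamma, and it draws activated T cells and NK cells that carry the receptor CXCR3. CXCL10 and CXCL11 bind the same receptor. Interferon gamma also induces guanylate-binding proteins, immunity-related GTPases and the class I and class II antigen-presentation genes, so macrophages that express Cxcl9 in a tumour are commonly read as cells that have met this cytokine.

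The members numbered 600 and 298 in KO 1 and KO 2, against 76 and 197 in WT 1 and WT 2. Their UMIs summed to 6163659 and 4040278 in KO, against 870515 and 2560361 in WT, so the smallest sum, that of WT 1, was the least precise. The median member carried 10040 and 13257.5 UMIs in KO, against 12063 and 13031 in WT. Cxcl9-zero macrophages were shallower in KO, with medians of 5782.5 and 8251 UMIs, against 10294 and 12124 in WT. No member barcode was shared between libraries, while 21 to 49 kept barcodes were shared by each pair of libraries.

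The markers agreed in part with the label. Levels are given as CPM, the UMIs of a gene per 1000000 UMIs summed over the members of a library. Adgre1, which encodes F4/80, had 161 and 106 CPM in KO, against 103 and 104 CPM in WT. The 6 macrophage genes outside the rule, Adgre1 among them, summed to 9741 and 5482 CPM in KO, against 4830 and 6580 CPM in WT members. Their sums in Cxcl9-zero macrophages were higher in every library, at 14667 and 7654 CPM in KO, against 6017 and 6866 CPM in WT. Of 5 genes listed for conventional type 1 dendritic cells, Xcr1 was at 0.162 and 0 CPM in KO, against 0 and 0.391 CPM in WT and Clec9a at 0.649 and 2.23 CPM in KO, against 4.59 and 2.73 CPM in WT. The whole list summed to 279 and 301 CPM in KO, against 298 and 311 CPM in WT members, above its sums of 227 and 218 CPM in KO, against 187 and 179 CPM in WT, in Cxcl9-zero macrophages. The sum of 5 genes of type 2 dendritic cells was 484 and 633 CPM in KO, against 987 and 693 CPM in WT members, and that of 4 genes of plasmacytoid dendritic cells was 434 and 357 CPM in KO, against 308 and 259 CPM in WT members. In Cxcl9-zero macrophages the type 2 sum was 490 and 614 CPM in KO, against 738 and 566 CPM in WT. The plasmacytoid sum there was 377 and 339 CPM in KO, against 173 and 214 CPM in WT, below that of members in every library. Krt8, Krt18 and Krt19, keratins of epithelial tumour cells, were at 0 in every library, and 3 genes of their list were also at 0 in Cxcl9-zero macrophages. With Epcam and Cdh1 the list of 5 summed to 22.1 and 65.3 CPM in KO, against 149 and 77.3 CPM in WT members. Its sums in Cxcl9-zero macrophages were lower in every library, at 20.5 and 44.5 CPM in KO, against 130 and 66.9 CPM in WT. AA467197 and Clec5a, the other proposed markers, were not particular to the members. AA467197 had 1541 and 2184 CPM in KO, against 2343 and 1594 CPM in WT among members, and 918 and 1247 CPM in KO, against 1275 and 987 CPM in WT, among Cxcl9-zero macrophages. Clec5a, a C-type lectin that signals through TYROBP, had 144 and 196 CPM in KO, against 189.5 and 199 CPM in WT among members, and 117 and 140.0 CPM in KO, against 156 and 169 CPM in WT, among Cxcl9-zero macrophages. Both were above the Cxcl9-zero level of the same library in all 4 libraries.

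Promoters of 4 genes are shown because the results turn on them: Cxcl9, which defines the population; Cxcl10 and Gbp2, whose genotype difference was small among members; and Lss, a cholesterol-synthesis gene that was lower in KO members. Each runs from 250 bases before the annotated start to 50 after it (RefSeq, GRCm38.p6): Cxcl9 at chr5:92328030-92328329 on the minus strand, Cxcl10 at chr5:92348840-92349139 on the minus strand, Gbp2 at chr3:142620413-142620712 on the plus strand and Lss at chr10:76531355-76531654 on the plus strand. Capitals mark matches, on either strand, to a paired interferon-response element (GAAANNGAAA), a palindrome of interferon-gamma-responsive promoters (TTCNNNGAA), a CCAAT box (CCAAT) or a sterol element (TCACNCCAC).
Cxcl9: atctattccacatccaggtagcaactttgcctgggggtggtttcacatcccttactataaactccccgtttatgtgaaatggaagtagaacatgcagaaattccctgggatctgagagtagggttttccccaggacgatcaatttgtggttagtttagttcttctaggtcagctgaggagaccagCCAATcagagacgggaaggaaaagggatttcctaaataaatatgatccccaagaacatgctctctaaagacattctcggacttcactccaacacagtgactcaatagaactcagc
Cxcl10: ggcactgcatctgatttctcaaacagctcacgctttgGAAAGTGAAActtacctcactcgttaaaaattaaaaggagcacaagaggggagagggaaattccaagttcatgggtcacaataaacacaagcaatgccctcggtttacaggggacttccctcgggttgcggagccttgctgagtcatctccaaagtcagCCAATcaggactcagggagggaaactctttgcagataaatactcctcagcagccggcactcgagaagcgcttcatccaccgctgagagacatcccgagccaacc
Gbp2: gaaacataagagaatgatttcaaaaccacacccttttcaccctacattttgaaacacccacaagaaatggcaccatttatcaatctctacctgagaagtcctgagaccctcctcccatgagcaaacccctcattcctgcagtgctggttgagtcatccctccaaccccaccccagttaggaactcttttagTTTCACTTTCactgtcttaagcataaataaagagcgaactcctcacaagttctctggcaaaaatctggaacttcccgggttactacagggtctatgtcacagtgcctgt
Lss: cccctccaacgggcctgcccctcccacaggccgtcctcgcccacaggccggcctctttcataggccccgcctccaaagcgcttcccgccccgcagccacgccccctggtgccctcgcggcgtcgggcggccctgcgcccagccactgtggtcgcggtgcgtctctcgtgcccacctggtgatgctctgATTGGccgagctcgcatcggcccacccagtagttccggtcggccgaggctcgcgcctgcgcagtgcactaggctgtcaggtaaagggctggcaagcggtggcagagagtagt
The Cxcl10 window held the paired element at position -213 from the start and the Gbp2 window held its complement at -59, while the Cxcl9 window held neither that pair nor the palindrome. Of 32851 promoter windows in the table, 3.44% held the paired element, 8.3% the palindrome, 37.4% a CCAAT box and 1.24% the sterol element. The paired element was present in 5 of 5 matched guanylate-binding protein genes and in 6 of 7 matched immunity-related GTPase genes, against 0 of 14 matched cholesterol-synthesis genes. A CCAAT box was present in 14 of 14 of the matched cholesterol-synthesis genes, including Lss, where it is read on the other strand, and the sterol element in 1 of 14. These matches describe letters within the window and say nothing of binding.

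Members made up a larger share of the gated macrophages in both KO libraries than in both WT libraries. They were 18.3% (exact binomial 95% interval 17.0 to 19.7) and 19.0% (17.1 to 21.1) in KO 1 and KO 2, against 3.97% (3.14 to 4.95) and 9.82% (8.55 to 11.2) in WT 1 and WT 2. The mean share was 18.7% ± 0.526 in KO and 6.90% ± 4.13 in WT (SD, n = 2 each), a difference of 11.8 percentage points. The groups did not overlap, but an exact two-sided permutation test of 2 against 2 libraries cannot give less than p = 0.333, the value found here. After every barcode had been thinned to 3000 UMIs before the rule was applied, the shares were 18.4% and 18.7% in KO, against 3.37% and 8.29% in WT. Barcodes under 3000 UMIs, left out of that count, numbered 5404 and 2579 in KO, against 1798 and 1188 in WT. Since thinning lowers every count, barcodes over the limits on C3 and other genes at full depth can enter that gate. It held 3704 and 1910 barcodes in KO, against 1900 and 2497 in WT. Among macrophages of at least 3000 UMIs gated at full depth, the thinned shares were 13.4% and 12.5% in KO. In WT they were 2.68% and 5.99%. The intervals cover counting error only.

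**Figure D1:**
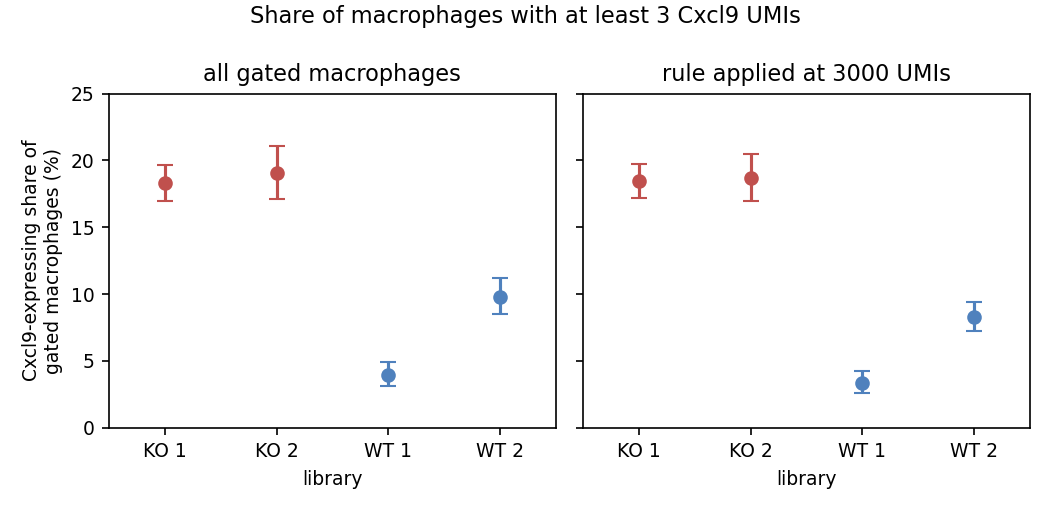
Share of gated macrophages with at least 3 Cxcl9 UMIs (y axis, percent) in each library (x axis, KO red, WT blue), over all gated macrophages (left) and with the whole rule applied to barcodes thinned to 3000 UMIs (right); bars are exact binomial 95% intervals. Both KO libraries sit near 18% to 19% in both panels, and both WT libraries lie below 10%. The panels do not hold the same barcodes, since the gate was applied anew after thinning.

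Cxcl9 transcripts were also found in droplets of other cells, and more often in KO. Barcodes with T cell transcripts carried at least 1 Cxcl9 UMI in 16.7% and 14.3% of cases in KO, against 1.57% and 3.32% in WT, at median depths of 2847 and 3172 UMIs in KO, against 2802 and 3013 in WT. At the member threshold of 3 UMIs these shares were 0.863% and 0.977% in KO, against 0 of 191 and 0 of 271 barcodes in WT, where a count of 0 allows a share of up to 1.57% and 1.11%. At these depths the member shares lie above this background in every library, but gated macrophages were deeper, with medians from 6971 to 12206 UMIs. After thinning to 3000 UMIs, T cell barcodes had at least 3 Cxcl9 UMIs in 0.350% and 0.300% of cases in KO. In WT these were 0 of 88 and 0 of 138. Gated macrophages then had 13.4% and 12.5% in KO, against 2.68% and 5.99% in WT. In WT 1, 88 barcodes are too few to place the background below the macrophage share. The part of free Cxcl9 RNA in these counts, and in those of 1 or 2 UMIs, was not tested.

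The rule left out most barcodes with Cxcl9. Members were 15.7% and 14.4% of the 3821 and 2076 kept barcodes with at least 3 Cxcl9 UMIs in KO, against 21.2% and 22.4% of 358 and 878 in WT. The limit on C3, the central complement component, removed 2405 and 1205 of these barcodes in KO, against 130 and 378 in WT, counted alone or with other criteria. With barcodes of 2 or more C3 UMIs let in, a setting chosen after seeing the data, the shares were 32.1% and 32.3% in KO, against 5.74% and 14.7% in WT. The limit on Fcrls removed 178 and 152 in KO, against 102 and 236 in WT, counted in the same way. That on Mki67 with Top2a removed 392 and 288 in KO, against 74 and 199 in WT. Both took a larger part of the WT barcodes, whereas that on C3 took a larger part of the KO barcodes. The members therefore describe Cxcl9-positive macrophages with little C3 and within the other limits, and not all Cxcl9-positive cells of these tumours.

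Among members, the amount of Cxcl9 per cell overlapped between the genotypes. The median member held 8 and 11 Cxcl9 UMIs in KO, against 9.5 and 13 in WT, or 10.2 and 10.7 per 10000 UMIs in KO, against 12.03 and 10.5 in WT. Summed over members, Cxcl9 had 1456 and 1409 CPM in KO, against 1455 and 1858 CPM in WT, a value bounded below by the rule and given without a test. Members with exactly 3 Cxcl9 UMIs, just inside the threshold, numbered 97 and 41 in KO, against 13 and 20 in WT, and 175 and 85 gated macrophages in KO, against 21 and 26 in WT, lay just outside it with 2 UMIs. Those just inside had 1161 and 950.2 CPM in KO, against 539 and 526 CPM in WT, of the interferon-induced surface protein gene Ly6a, and those just outside had 1035 and 1127 CPM in KO, against 645 and 379.9 CPM in WT. For Ly6a the 2 bands overlapped within each genotype. Cxcl10 had 642 and 426 CPM just inside, against 170.0 and 327 CPM just outside, in KO, without overlap, and 1812 and 118 CPM just inside, against 11.7 and 565 CPM just outside, in WT.

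Members varied along their Cxcl9 level in the same direction in every library for several genes. Gbp2, an interferon-induced GTPase gene, had 744 and 671 CPM in KO members with at least 15 Cxcl9 UMIs per 10000, against 902 and 803 CPM in such WT members. In members under 5 per 10000 Gbp2 had 261 and 241 CPM in KO, against 434 and 160.0 CPM in WT. Mrc1, the mannose receptor gene, ran the other way, with 235 and 186 CPM in the highest KO bin, against 259.9 and 176 CPM in the highest WT bin, and 489 and 388 CPM in the lowest KO bin, against 555 and 303 CPM in the lowest WT bin. Cd40, a co-stimulatory receptor gene, was higher in the highest than in the lowest Cxcl9 bin of each library, and Arg1, the arginase gene, was lower. The highest bin of WT 1 held 28 cells and the lowest 18, so its values rest on few barcodes.

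Against Cxcl9-zero macrophages of the same library, the genes ranked highest in members beside Cxcl9 included Serpina3g, Cxcl11 and Cxcl10. Since the rule chose the members on Cxcl9, these values are a description without a test. The log2 ratio of members to Cxcl9-zero macrophages, with 1 CPM added to both, ranged over libraries from 1.61 to 3.89 for Cxcl10, from 1.71 to 3.90 for Cxcl11, from 1.38 to 4.29 for Gbp2 and from 1.17 to 3.28 for Ly6a. Serpina3g, a serine protease inhibitor gene, led the ranking with 1.72 to 4.55, and Cd40 had 0.97 to 2.00. Ass1, which makes argininosuccinate for arginine renewal, had 1.03 to 1.88, and Ifitm1, an antiviral membrane protein gene, had 0.97 to 1.44. For Cxcl10, Gbp2, Ly6a, Serpina3g and Cd40 both WT ratios were above both KO ratios, and the Cxcl9-zero level was higher in both KO libraries than in both WT libraries. The genes ranked as lower in members included Cxcl1, with log2 ratios from -2.99 to -0.90, Thbs1, the thrombospondin gene, from -1.76 to -0.89, Areg, an EGF-receptor ligand gene, from -2.59 to -0.78, and Ccl3, from -3.07 to -0.79.

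A minority of the members' genes was called for genotype. UMI counts summed per library were tested with edgeR's quasi-likelihood test, and 463 of 9419 genes, 4.92%, passed a Benjamini-Hochberg adjusted p of 0.05. Of these, 299 genes (3.17% of those tested) were higher in KO members and 164 (1.74%) lower. The counts per gene list below stand beside these shares over all genes, and the lists were chosen with earlier results known. An unadjusted p under 0.05 was found for 1601 genes, and a gene that was not called is not thereby unchanged. With total-count scaling in place of TMM the split was 243 higher and 237 lower, with a median log2 KO over WT of -0.08 over all genes, against -0.0035 with TMM, so directions of genes with small differences depend on the scaling. Leaving out KO 1 gave 281 calls and leaving out WT 2 gave 285, against 502 without KO 2 and 507 without WT 1. The genes tested included genes of the rule, and none of those passed in members. The rule bounds their levels in members of both genotypes, so this outcome is not read as a result.

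**Figure D2:**
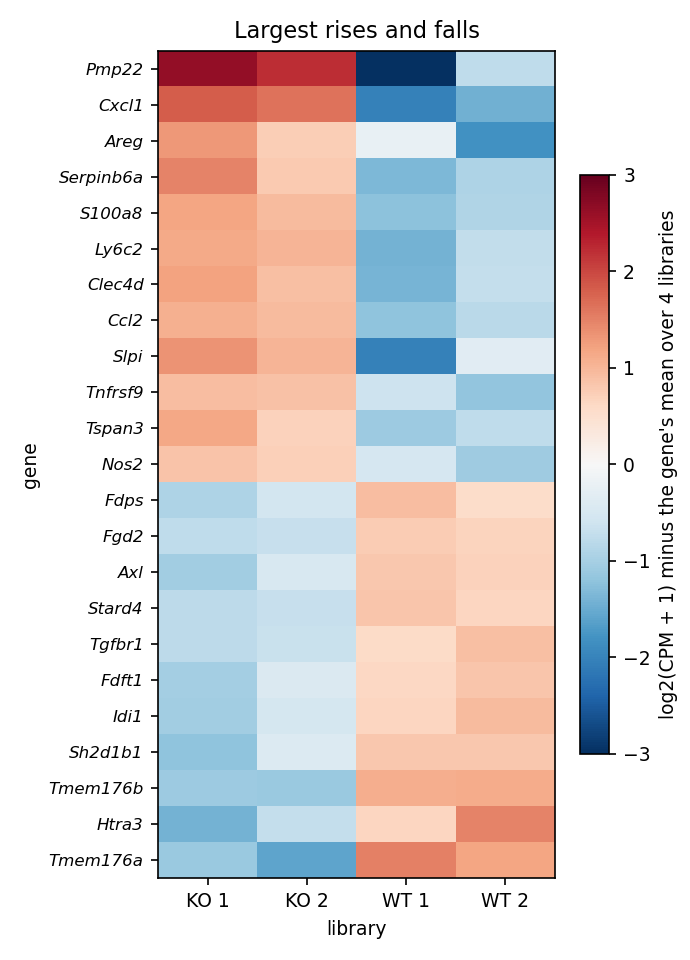
Expression of the 12 genes with the largest called rises (top) and of genes with the largest called falls (bottom) in KO against WT members. All were chosen with at least 20 CPM on average and KO values that did not overlap WT values. Colour is log2(CPM + 1) minus the gene's mean over the 4 libraries, with KO libraries left of WT libraries. Cxcl1 is high in both KO libraries (259.7 and 229 CPM) and low in both WT libraries (17.2 and 26.2 CPM), and Tmem176a shows the reverse (10.4 and 7.18 CPM in KO, 68.9 and 54.3 CPM in WT).

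Among members, the interferon-gamma programme that goes with Cxcl9 was called for genotype in part, where 4.92% of all genes tested were called. The calls were 3 higher and 1 lower of 19 pathway genes, 1 of 8 immunity-related GTPases and 0 of 8 guanylate-binding proteins. In Cxcl9-zero macrophages the median log2 KO over WT of these lists was 1.53, 2.22 and 2.21. The 2 contrasts differed by test at many genes of the programme. Cxcl10 had 801 and 500.5 CPM in KO members, against 701 and 689 CPM in WT members, and the groups overlapped. In Cxcl9-zero macrophages it had 209 and 164 CPM in KO, against 63.7 and 45.6 CPM in WT, with no overlap. The log2 KO over WT was -0.02 ± 0.19 in members (SE, adjusted p = 0.985) and 1.79 in Cxcl9-zero macrophages, and edgeR's test of the difference between them gave -1.83 ± 0.19 (adjusted p = 0.0127). That call kept its direction but was lost at member thresholds of 2 or 5 Cxcl9 UMIs, after thinning to 3000 UMIs, without the deepest barcodes and with the C3 criterion dropped, with adjusted p from 0.0678 to 0.387. Over all genes, 319 of 10644, 3%, passed this test of the difference, 174 (1.63%) with a more positive KO-over-WT difference in members and 145 (1.36%) with a more negative one. The count includes Csf1r and the 3 C1q genes, which the rule uses. With total-count scaling it was 114 and 224, and without KO 1 only 81 genes in all passed, against 466 without WT 1.

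Guanylate-binding proteins, which attack vacuoles that hold pathogens, showed this pattern in part. Of 8 tested in members 0 passed edgeR's test for genotype, 0 had an unadjusted p under 0.05, and 0 passed with DESeq2. Their median log2 KO over WT was 0.02 in members (-0.06 with total-count scaling) and 2.21 in Cxcl9-zero macrophages. The difference was called in 6 of 10, all more negative in members: Gbp3, Gbp4, Gbp5, Gbp7, Gbp8 and Gbp9. Gbp5 had 67.2 and 52.0 CPM in KO members, against 71.2 and 60.1 CPM in WT members. In Cxcl9-zero macrophages Gbp5 had 33.6 and 22.3 CPM in KO, against 6.66 and 5.20 CPM in WT. The KO libraries of the Cxcl9-zero population stood well above the WT libraries, whereas the members' libraries overlapped, and the difference was -2.31 ± 0.18 (adjusted p = 2.75e-08). Gbp2, the most abundant of the family, had 486 and 398 CPM in KO members, against 608 and 434 CPM in WT members, and 186 and 139.7 CPM in KO, against 30.1 and 40.4 CPM in WT, among Cxcl9-zero macrophages. Its difference of -2.30 ± 0.41 did not pass (adjusted p = 0.255). The number of such calls was 4 without KO 1 and 6 to 8 without each of the other libraries. With the C3 criterion dropped, 3 of the family were called higher in KO members and 9 were called for the difference. Reads of these near-identical paralogues can be split or lost between members of the family.

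Immunity-related GTPases, which act on the same vacuoles, gave 1 call of 8 in members (Igtp, higher in KO). By edgeR's test 6 of the 8 had an unadjusted p under 0.05, and all 8 estimates were positive, from 0.05 to 1.16. Their median log2 KO over WT was 0.64 in members and 2.22 in Cxcl9-zero macrophages, so members were not level between genotypes. For the difference 7 of 9 passed, all more negative in members. With the C3 criterion dropped, 6 were called higher in KO members. Iigp1 had 299 and 193 CPM in KO members, against 191 and 155 CPM in WT members. Among Cxcl9-zero macrophages Iigp1 had 185 and 111 CPM in KO, against 11.5 and 16.6 CPM in WT, giving a difference of -2.72 ± 0.24 (adjusted p = 0.00316). That call was lost without barcodes with markers of other cell types (adjusted p = 0.284) and with macrophages of 0 to 2 Cxcl9 UMIs as the other population (adjusted p = 0.252). KO 2 and WT 1 members had nearly the same Iigp1 level, and no such overlap was seen in Cxcl9-zero macrophages. Ifi47 had 125 and 119 CPM in KO members, against 153 and 103 CPM in WT members, with a difference of -1.46 ± 0.15 (adjusted p = 3.09e-06). Igtp rose in KO members to 87.6 and 78.5 CPM, against 43.7 and 49.2 CPM in WT members (log2 0.89 ± 0.16, adjusted p = 0.00230).

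**Figure D3:**
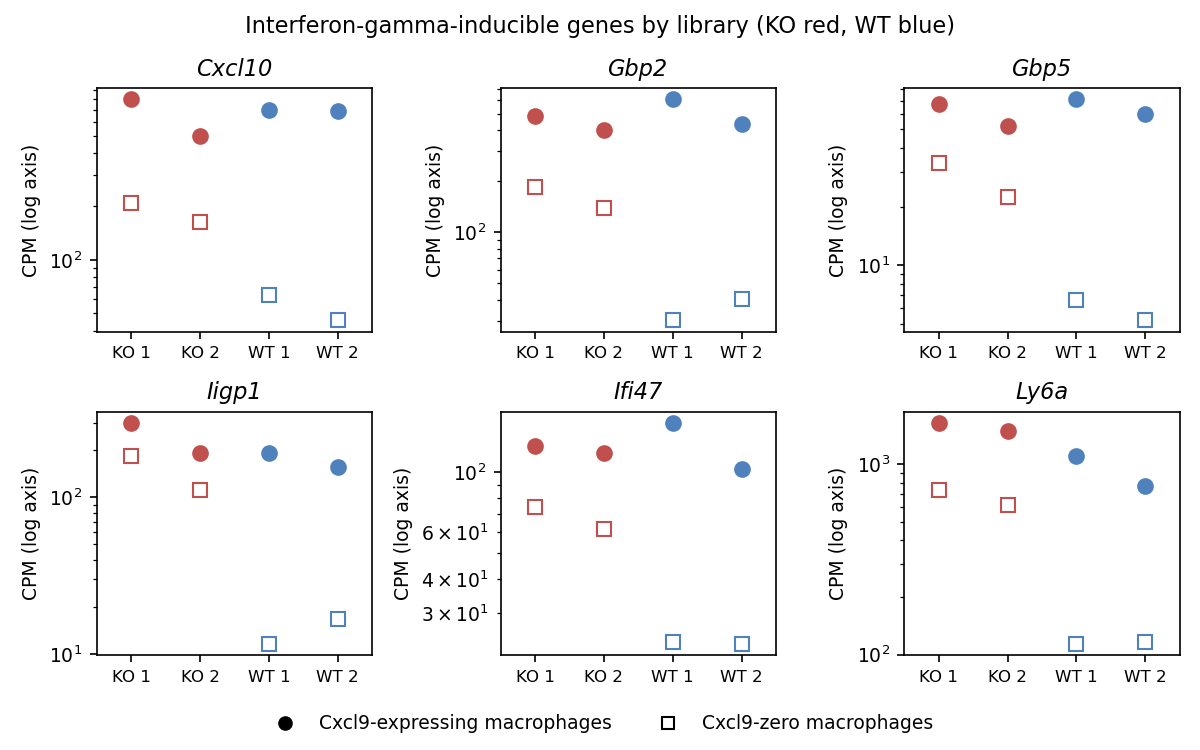
CPM (y axes, log scale, each with its own range) of 6 interferon-gamma-inducible genes by library (x axes, KO red, WT blue) in Cxcl9-expressing macrophages (filled circles) and in Cxcl9-zero macrophages (open squares). Filled circles of KO and WT overlap for Cxcl10, Gbp2, Gbp5 and Ifi47, nearly meet for Iigp1 and are higher in KO for Ly6a, whereas open squares are lower in both WT libraries than in both KO libraries: Gbp5 had 33.6 and 22.3 CPM in KO and 6.66 and 5.20 CPM in WT Cxcl9-zero macrophages.

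Other genes of the interferon-gamma pathway followed in part. Of 19 tested, 3 were higher (Ly6a, Fcgr4 and Il18bp) and 1 lower (Ciita) in KO members, and 10 passed for a more negative difference; with the C3 criterion dropped, 8 were higher and 1 lower. Ly6a rose in KO members to 1653 and 1502 CPM, against 1109.7 and 768 CPM in WT members (log2 0.84 ± 0.15, adjusted p = 0.00278), and was called without each library in turn. Il18bp, which encodes a decoy for interleukin 18, had 83.9 and 59.9 CPM in KO, against 51.7 and 28.5 CPM in WT members (adjusted p = 0.0455), and this call was lost without WT 2 (adjusted p = 0.303). Fcgr4, a receptor for IgG, had 355 and 295 CPM in KO, against 254 and 203 CPM in WT members (adjusted p = 0.0153), lost without KO 1 (adjusted p = 0.298) or WT 2 (adjusted p = 0.153); its difference of -1.18 ± 0.12 held without each library. Type I interferon-stimulated genes gave 1 call of 23 in members (Rtp4, higher) and 2 of 25 for the difference. Isg15 had 161 and 126 CPM in KO, against 206 and 134 CPM in WT members, and the groups overlapped. Since Cxcl9 itself belongs to this programme, a threshold on Cxcl9 selects cells by it in both genotypes. The part of that choice in the differences and a change of the programme in KO cells cannot be told apart here. Cxcl9-zero macrophages were shallower in KO, with medians of 5782.5 and 8251 UMIs, against 10294 and 12124 in WT. A count of 0 Cxcl9 UMIs excludes less at lower depth. With the rule applied after thinning to 3000 UMIs, 139 genes in all passed for the difference, against 319. Cxcl9 UMIs were also more frequent in KO T cell barcodes, and the part of free RNA in the Cxcl9-zero levels was not tested.

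**Figure D4:**
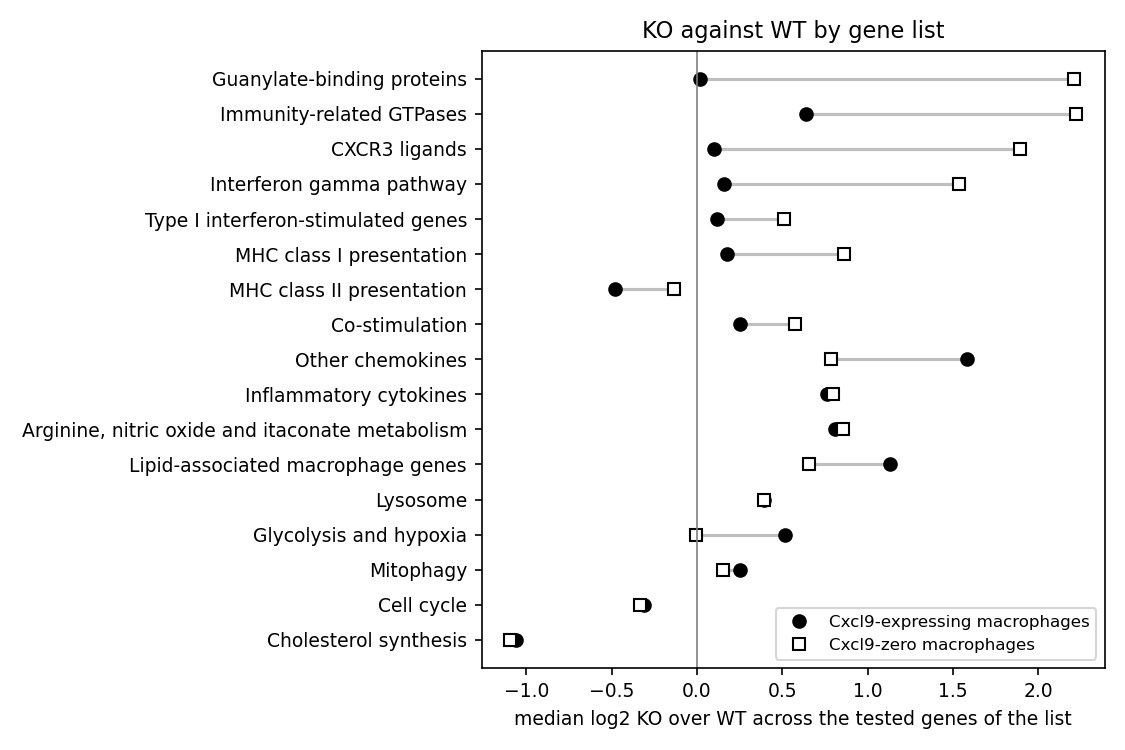
Median log2 KO over WT (x axis) over the tested genes of each gene list (y axis) in Cxcl9-expressing macrophages (filled circles) and in Cxcl9-zero macrophages (open squares); a grey line joins the 2 medians of a list. Guanylate-binding proteins lie at 0.02 in members and 2.21 in Cxcl9-zero macrophages, and cholesterol synthesis lies at -1.06 and -1.10.

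Antigen-presentation genes called in KO members were mostly lower for class II and higher for class I, at a minority of either list. Of 13 class II genes tested, 5 fell (H2-Aa, H2-Ab1, H2-Eb1, H2-DMa and Cd74) and 1 rose, the cysteine protease gene Ctsl, which is also in the lysosomal list. H2-Eb1, a chain of the peptide-presenting I-E molecule, had 2667 and 3366 CPM in KO, against 5165 and 5533 CPM in WT members, and both KO values were below both WT values (log2 -0.75 ± 0.13, adjusted p = 0.00198). H2-Ab1 had 3648 and 4481 CPM in KO, against 6333 and 6517 CPM in WT members (log2 -0.58 ± 0.13, adjusted p = 0.0110), and H2-Aa had 3630.2 and 4544 CPM in KO, against 6365 and 6649 CPM in WT members (log2 -0.60 ± 0.13, adjusted p = 0.0110). With the C3 criterion dropped the list gave 3 higher and 2 lower, and with the rule applied after thinning 1 higher and 1 lower. All 5 class II falls were lost without KO 1, with adjusted p of 0.176 for H2-Eb1, 0.514 for H2-Ab1, 0.519 for H2-Aa and 0.831 for Cd74. Cd74, the invariant chain gene, had 9425 and 11942 CPM in KO, against 15027 and 16359 CPM in WT members (adjusted p = 0.0477) and was also lost without KO 2 (adjusted p = 0.165) or WT 2 (adjusted p = 0.201). Ciita, the master regulator gene of class II transcription, had 56.0 and 76.0 CPM in KO, against 149 and 139 CPM in WT members (log2 -1.05 ± 0.16, adjusted p = 3.72e-04), and this fall was called without each library in turn.

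The class II falls were larger in members than in Cxcl9-zero macrophages. The same 5 genes passed for the difference, with -0.44 ± 0.06 for H2-Eb1 (adjusted p = 3.85e-05), -0.42 ± 0.06 for H2-Aa (adjusted p = 9.31e-05) and -0.38 ± 0.05 for Cd74 (adjusted p = 4.61e-05). In Cxcl9-zero macrophages H2-Eb1 had 1816 and 2136 CPM in KO, against 2278 and 2625 CPM in WT. These 3 differences were called without each library in turn. Ciita differed by -0.67 ± 0.14 (adjusted p = 0.00759), a call lost without KO 1 (adjusted p = 0.569) and with DESeq2 (adjusted p = 0.102).

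Of 22 class I genes tested, 6 were higher in KO members (H2-K1, H2-D1, B2m, H2-Q4, H2-Q6 and H2-Q7) and 0 lower. H2-D1, a classical class I heavy chain gene, had 3264 and 2767 CPM in KO, against 1770.2 and 1816 CPM in WT members (log2 0.83 ± 0.13, adjusted p = 4.92e-04), a call kept without each library in turn. H2-K1 had 2116 and 1798 CPM in KO, against 1273 and 1237 CPM in WT members (adjusted p = 0.00161; 0.0523 without KO 1), and B2m, the shared light chain gene, had 4475 and 3741 CPM in KO, against 2996 and 2794 CPM in WT members (adjusted p = 0.0100; 0.378 without KO 1 and 0.0515 without WT 2). The peptide-supply genes of the list were not called in members: Psmb8, an immunoproteasome subunit gene, had 686 and 736 CPM in KO, against 652 and 689 CPM in WT members (adjusted p = 0.573). For the difference 13 of 22 passed, all more negative in members, among them Psmb8 with -0.45 ± 0.07 (adjusted p = 7.64e-04; 0.137 without KO 1) and H2-K1 with -0.42 ± 0.07 (adjusted p = 9.50e-04; 0.0726 without KO 1). Class I heavy chain genes share sequence, so UMIs can be split among them.

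**Figure D5:**
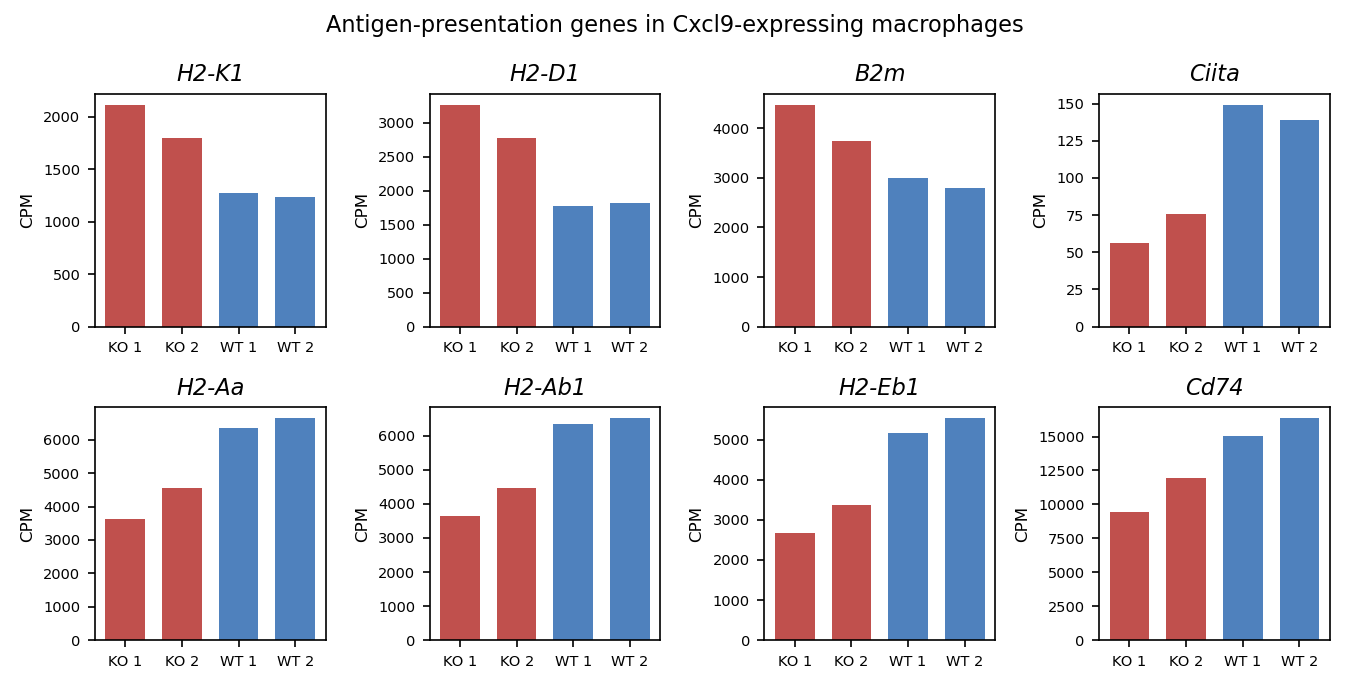
CPM (y axes, each from 0 with its own range) of 8 antigen-presentation genes in Cxcl9-expressing macrophages of each library (x axes, KO red, WT blue); bars are single library values without error bars. H2-K1, H2-D1 and B2m are higher in both KO libraries, and Ciita, H2-Aa, H2-Ab1, H2-Eb1 and Cd74 are higher in both WT libraries.

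Genes of signals for T cells were called for genotype at a minority of each list, where 4.92% of all genes tested were called. Of 8 co-stimulation genes tested, 2 were higher in KO members (Cd86 and Slamf7) and 1 lower (Icosl). Cd86, a ligand of CD28 and CTLA-4, had 200.04 and 167 CPM in KO, against 133 and 134 CPM in WT members (log2 0.53 ± 0.14, adjusted p = 0.0304), lost without KO 1 (adjusted p = 0.562) or WT 2 (adjusted p = 0.0935). Of 13 inhibitory ligands and receptors, Cd274, which encodes PD-L1, rose to 171 and 155 CPM in KO members, against 114 and 97.6 CPM in WT members (log2 0.73 ± 0.14, adjusted p = 0.00356; 0.0901 without KO 1 and 0.0566 without WT 2). Cd276, another B7-family gene, fell to 3.73 and 4.21 CPM in KO, against 17.2 and 12.9 CPM in WT members (adjusted p = 0.00370), with or without any 1 library. Among 10 inflammatory cytokine genes, Il1rn, the interleukin 1 receptor antagonist gene, rose to 492 and 399 CPM in KO, against 199.9 and 185 CPM in WT members (log2 1.30 ± 0.14, adjusted p = 9.67e-06). Tnf also rose, with 36.7 and 38.4 CPM in KO, against 16.1 and 23.8 CPM in WT members (adjusted p = 0.0196; 0.0651 without WT 1). Il1b was far more abundant and had 2363 and 2288 CPM in KO, against 2381 and 1595 CPM in WT members, with overlapping groups.

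Several chemokines other than the CXCR3 ligands rose in KO members. Of 18 tested, 8 were higher (Ccl2, Ccl5, Ccl6, Ccl7, Ccl9, Ccl12, Cxcl1 and Cxcl2) and 1 lower (Cxcl14), and the other 9 did not pass, with a median log2 KO over WT of 1.58. Cxcl1, a neutrophil attractant that acts on CXCR2, had 259.7 and 229 CPM in KO, against 17.2 and 26.2 CPM in WT members, a log2 difference of 3.46 ± 0.18 (adjusted p = 2.37e-09). Both KO values were far above both WT values, a separation required of the genes named for the largest rises. Cxcl2, a ligand of the same receptor, had 3020.0 and 2720.1 CPM in KO, against 925 and 941 CPM in WT members (log2 1.70 ± 0.12, adjusted p = 2.10e-07). Ccl2, a ligand of the monocyte receptor CCR2, had 1563 and 1442 CPM in KO, against 324 and 424 CPM in WT members (log2 2.07 ± 0.14, adjusted p = 1.13e-07), and Ccl6 had 1961 and 2109 CPM in KO, against 688 and 756 CPM in WT members (log2 1.57 ± 0.12, adjusted p = 4.36e-07). These 4 calls were kept without each library in turn and under every other setting tried, and the whole list gave 10 to 14 higher when a library was left out. The rises of Cxcl1, Cxcl2 and Ccl6 were larger in members than in Cxcl9-zero macrophages, with differences of 1.48 ± 0.17 (adjusted p = 1.54e-05), 0.94 ± 0.06 (adjusted p = 8.26e-09) and 0.82 ± 0.06 (adjusted p = 1.82e-08). At a threshold of 5 Cxcl9 UMIs these differences were lost (adjusted p of 0.508, 0.254 and 0.224). That of Cxcl1 was also lost with the C3 criterion dropped (adjusted p = 0.401), that of Cxcl2 at 2 UMIs (adjusted p = 0.0544) and that of Ccl6 without barcodes with markers of other cell types (adjusted p = 0.384). The difference for Ccl2, 0.53 ± 0.49, did not pass (adjusted p = 0.787). Pf4 and Ccl3 had higher KO means that did not pass, with Pf4 at 3834 and 1792 CPM in KO, against 801 and 569 CPM in WT members (adjusted p = 0.288).

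Genes of arginine, nitric oxide and itaconate metabolism gave 6 calls of 12, all higher in KO members: Nos2, Arg2, Ass1, Acod1, Hcar2 and Slc7a11. Nos2, the inducible nitric oxide synthase gene, had 147 and 132 CPM in KO, against 56.3 and 37.9 CPM in WT members (log2 1.73 ± 0.17, adjusted p = 5.60e-06). Acod1, which makes itaconate, had 98.8 and 96.5 CPM in KO, against 27.6 and 46.5 CPM in WT members (log2 1.36 ± 0.18, adjusted p = 1.47e-04). Both KO values of Acod1 lay above both WT values, and for Nos2 such a separation was a condition of being named among the largest rises. Nos2 had 108 and 97.9 CPM in KO, against 35.5 and 32.7 CPM in WT, among Cxcl9-zero macrophages (difference 0.15 ± 0.15, adjusted p = 0.765). Acod1 had 54.4 and 71.4 CPM in KO, against 3.04 and 7.73 CPM in WT, among Cxcl9-zero macrophages, and its difference was -1.96 ± 0.23 (adjusted p = 8.16e-05; 0.298 with the C3 criterion dropped). Arg1, the abundant cytosolic arginase gene, had 4669.8 and 4732 CPM in KO, against 3627 and 1831 CPM in WT members, and did not pass (adjusted p = 0.409).

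Pattern-recognition and IgG receptors were called for genotype at a minority of genes, where 4.92% of all genes tested were called. Among 14 genes listed with AA467197 and Clec5a, 4 were higher in KO members: Clec4d, Clec4e, Clec4n and Fcer1g. Clec4d, a C-type lectin that signals through the FCER1G chain, had 419.6 and 338 CPM in KO, against 68.9 and 111 CPM in WT members (log2 2.07 ± 0.20, adjusted p = 8.36e-05) and rose more in members than in Cxcl9-zero macrophages (difference 1.25 ± 0.10, adjusted p = 4.52e-08). Clec4e, which encodes Mincle, had 177 and 168 CPM in KO, against 98.8 and 114 CPM in WT members (adjusted p = 0.00230), and Clec4n, which encodes Dectin-2, had 1177 and 1162 CPM in KO, against 708 and 742 CPM in WT members (adjusted p = 6.19e-04). Fcer1g itself was near the threshold (adjusted p = 0.0447) and was lost without any of the 4 libraries, with adjusted p of up to 0.416 without KO 1. AA467197 and Clec5a did not pass, with log2 differences of 0.00 ± 0.22 and -0.13 ± 0.15. Of 23 Toll-like receptor and NF-kB genes, 4 were higher. Cd14, the lipopolysaccharide co-receptor gene, had 2090.3 and 1789 CPM in KO, against 903 and 992 CPM in WT members (log2 1.11 ± 0.13, adjusted p = 2.29e-05), and Nfkbia, the inhibitor that NF-kB induces, had 628 and 615 CPM in KO, against 318 and 293 CPM in WT members (log2 1.11 ± 0.12, adjusted p = 1.59e-05). Among 8 complement genes outside the rule, 3 were higher and 2 lower; Itgax, the CD11c gene, fell to 60.5 and 84.4 CPM in KO, against 179 and 136 CPM in WT members (log2 -1.02 ± 0.17, adjusted p = 0.00235; 0.0543 after thinning).

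Lipid-associated macrophage genes, named for lipid-laden macrophages of fat and plaques, rose in KO members in 11 of 18 cases and fell in 0, with a median log2 of 1.13, against 0.66 in Cxcl9-zero macrophages. Spp1, which encodes osteopontin, had 4724 and 5740.2 CPM in KO, against 1606 and 1814 CPM in WT members, with every KO value above every WT value (log2 1.69 ± 0.13, adjusted p = 4.36e-07). In Cxcl9-zero macrophages Spp1 had 5426 and 5878 CPM in KO, against 5279 and 4781 CPM in WT, so WT members were the low group, and the difference was 1.52 ± 0.10 (adjusted p = 3.61e-04). It was lost at Cxcl9 thresholds of 2 (adjusted p = 0.0636) and 5 (adjusted p = 0.105). Mmp12, the macrophage elastase gene, had 876 and 999 CPM in KO, against 418 and 302 CPM in WT members (log2 1.48 ± 0.15, adjusted p = 5.90e-06), and Lgals3, the galectin 3 gene, had 3987 and 4865 CPM in KO, against 2222 and 2749 CPM in WT members (log2 0.91 ± 0.14, adjusted p = 5.64e-04). Hmox1, which breaks down haem, shared this pattern outside the list, with 184 and 187 CPM in KO, against 72.4 and 66.0 CPM in WT members and 269.6 and 265 CPM in KO, against 332 and 252 CPM in WT, among Cxcl9-zero macrophages (difference 1.58 ± 0.11, adjusted p = 8.26e-09).

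Lysosomal genes gave 10 higher and 1 lower of 28 in KO members. Ctsb, Ctsd and Ctsl among the higher genes were also counted in the lipid-associated list. The protease gene Ctsd had 1718 and 1336 CPM in KO, against 602 and 572 CPM in WT members (log2 1.46 ± 0.14, adjusted p = 2.49e-06), and Ctsl had 1665 and 1226 CPM in KO, against 442 and 473 CPM in WT members (log2 1.73 ± 0.15, adjusted p = 8.76e-07). Cd68, the lysosomal glycoprotein gene used as a macrophage marker, had 679 and 623 CPM in KO, against 319 and 391 CPM in WT members (log2 0.94 ± 0.13, adjusted p = 2.39e-04). These 3 calls were kept without each library in turn, while that of Psap was lost without any of them (adjusted p = 0.0496; up to 0.655 without KO 1). The list gave 5 to 8 higher when a library was left out, lowest without KO 1. Of 12 scavenger and alternative-activation genes, 3 were higher; Cd36, a fatty acid and lipoprotein receptor gene, had 21.9 and 27.0 CPM in KO, against 3.45 and 7.03 CPM in WT members (log2 2.06 ± 0.31, adjusted p = 4.92e-04; 0.0506 after thinning), whereas Mrc1 had 376 and 295 CPM in KO, against 378 and 237 CPM in WT members, with overlapping groups.

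Most cholesterol-synthesis genes fell in KO members. Of 20 tested, 16 were lower and 0 higher, with a median log2 of -1.06, against -1.10 in Cxcl9-zero macrophages, over the same list. Idi1, which makes the activated isoprene unit, had 24.0 and 34.7 CPM in KO, against 79.3 and 98.0 CPM in WT members (log2 -1.58 ± 0.19, adjusted p = 3.48e-05). Fdps, which joins isoprenes, had 56.8 and 73.5 CPM in KO, against 206 and 158 CPM in WT members (log2 -1.39 ± 0.16, adjusted p = 2.16e-05). Cyp51, a sterol demethylase gene, had 36.0 and 35.6 CPM in KO, against 77.0 and 93.3 CPM in WT members (log2 -1.21 ± 0.16, adjusted p = 1.40e-04). Both KO values of Cyp51 lay below both WT values, and for Idi1 and Fdps this was a condition of being named among the largest falls. All 3 genes were called without each library in turn. Lss, the lanosterol synthase gene whose promoter is shown above, was chosen after its values were seen and had 3.73 and 3.96 CPM in KO, against 14.9 and 12.5 CPM in WT members (log2 -1.71 ± 0.34, adjusted p = 0.00541). Of the list 11 to 18 were lower when a library was left out, fewest without WT 2. For the difference between members and Cxcl9-zero macrophages 0 of 20 passed edgeR's test, 0 had an unadjusted p under 0.05 and 0 passed with DESeq2, with -0.15 ± 0.15 for Idi1.

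Genes of glycolysis and the hypoxia response were higher in KO members in 6 of 19 cases and lower in 0, and 12 of 19 passed for a more positive difference than in Cxcl9-zero macrophages. Egln3, a prolyl hydroxylase gene that low oxygen induces, had 45.9 and 48.5 CPM in KO, against 25.3 and 13.3 CPM in WT members (log2 1.56 ± 0.24, adjusted p = 4.92e-04; 0.0664 without WT 2). In Cxcl9-zero macrophages it had 61.6 and 59.8 CPM in KO, against 72.9 and 53.2 CPM in WT, and the difference was 1.54 ± 0.19 (adjusted p = 2.45e-05). Bnip3, a hypoxia-induced mitophagy receptor gene, had 233 and 275 CPM in KO, against 192 and 142 CPM in WT members (adjusted p = 0.00756; 0.0616 without KO 2 and 0.119 without WT 2), and a difference of 0.87 ± 0.09 (adjusted p = 3.09e-06). Gapdh had 4000.1 and 4470.0 CPM in KO, against 3974 and 3795 CPM in WT members and did not pass. The calls in members fell to 1 higher and 1 lower without WT 2, and those of the difference to 4 without KO 1. Of 23 genes of mitophagy, the removal of damaged mitochondria, 2 were higher in KO members and 0 lower: Bnip3 and Sqstm1, the autophagy adaptor gene, which had 115 and 96.3 CPM in KO, against 65.5 and 74.99 CPM in WT members (adjusted p = 0.0178; 0.39 without KO 1). Tomm20, an outer mitochondrial membrane gene, had 239.6 and 252 CPM in KO, against 235 and 309.7 CPM in WT members, with overlapping groups.

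Monocyte genes moved both ways in KO members, with 2 of 14 higher and 1 lower. Ccr2, the receptor of blood monocytes for CCL2, fell to 276 and 330.4 CPM in KO, against 919 and 709 CPM in WT members (log2 -1.34 ± 0.14, adjusted p = 9.08e-06). Ly6c2, a surface marker gene of inflammatory monocytes, rose to 100.4 and 91.3 CPM in KO, against 16.1 and 26.6 CPM in WT members (log2 2.11 ± 0.20, adjusted p = 2.39e-06). Both calls were kept without each library in turn, and neither gene passed for the difference from Cxcl9-zero macrophages (0.04 ± 0.08 for Ccr2 and 0.64 ± 0.34 for Ly6c2). Axl, a receptor for apoptotic cells, fell to 80.0 and 119.5 CPM in KO, against 293 and 269 CPM in WT members (log2 -1.42 ± 0.17, adjusted p = 1.11e-04), and its ligand gene Gas6 rose to 30.7 and 18.1 CPM in KO, against 1.15 and 4.69 CPM in WT members (adjusted p = 0.00208; 0.105 at a threshold of 5 Cxcl9 UMIs). Tmem176a and Tmem176b, neighbouring membrane protein genes, fell more in members than in Cxcl9-zero macrophages. Tmem176b had 16.5 and 16.1 CPM in KO, against 78.1 and 80.1 CPM in WT members (log2 -2.20 ± 0.17, adjusted p = 4.36e-07; 0.0707 with the rule applied after thinning), while Cxcl9-zero macrophages had 40.9 and 26.3 CPM in KO, against 39.7 and 45.5 CPM in WT (difference -1.86 ± 0.18, adjusted p = 6.28e-07; 0.0539 with the rule applied after thinning). Tmem176a differed by -2.42 ± 0.21 (adjusted p = 1.57e-07). Of 22 cell cycle genes outside the rule, 1 was lower and 0 higher.

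Genes that tissue digestion can induce were also higher in KO members at 4 of 21 immediate early and heat shock genes, with 1 lower. Dusp1 had 994 and 1003 CPM in KO, against 543 and 619.8 CPM in WT members (log2 0.85 ± 0.12, adjusted p = 3.20e-04) and Ier3 had 1041 and 863 CPM in KO, against 678 and 537 CPM in WT members (adjusted p = 0.00291), while Junb had 1557 and 1285 CPM in KO, against 1474 and 1347 CPM in WT members and Hspa8 1981 and 1729 CPM in KO, against 1959 and 1907 CPM in WT members, with overlapping groups. The part of digestion in these and in the chemokine and NF-kB calls was not tested.

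Marker lists of T cells, NK and cytotoxic cells and neutrophils had higher sums in both KO libraries, whereas those of CD4 T cells and B cells did not. The summed level of 4 T cell genes outside the rule was 12.2 and 12.9 CPM in KO, against 2.30 and 4.30 CPM in WT members, and that of 7 NK and cytotoxic genes was 28.4 and 49.0 CPM in KO, against 3.45 and 4.30 CPM in WT. The sum of 5 neutrophil genes was 106 and 76.5 CPM in KO, against 27.6 and 24.2 CPM in WT members, and S100a8 among them was called higher (log2 2.23 ± 0.23, adjusted p = 8.90e-06). The 3 CD4 T cell genes summed to 4.54 and 7.92 CPM in KO, against 12.6 and 7.81 CPM in WT members, and the 4 B cell genes to 3.73 and 3.22 CPM in KO, against 1.15 and 5.08 CPM in WT members. The 7 monocyte genes had sums of 2544 and 2484 CPM in KO, against 4847 and 2832 CPM in WT members. The part of such cells in the genotype differences was not tested. Epcam and Cdh1 ran the other way, with Epcam at 2.43 and 11.6 CPM in KO, against 32.2 and 28.5 CPM in WT members, and neither was called. Without the barcodes that held markers of other cell types, 513 and 235 members remained in KO, against 68 and 174 in WT, 338 genes were called, of which 320 were among the 463, and S100a8, whose UMIs helped choose the barcodes removed, was lost (adjusted p = 0.105). Cxcl1, Ccl2, Spp1, Nos2, Idi1, Ciita and H2-Eb1 were still called in that subset.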

How the data were processed

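The authors deposited UMI counts, as whole numbers without normalisation, for 22620 genes in every barcode of a library. The file headers name Cell Ranger 5.0.0. The submitters' processing notes name version 5.0.1 with mm10, and Seurat 3.15 with no role stated. Genomic DNA is entered as the molecule, whereas the described libraries are made from cDNA. Strand handling, and any removal of doublets or free RNA before deposit, are not given in the sources used here, and neither was removed here. No doublet caller was run; barcodes with markers of other cell types, or among the 5% deepest of a library, were left out as alternatives. Libraries held 130466357 and 104900918 UMIs in KO, against 94213071 and 112472244 in WT.

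Barcodes were chosen in Python 3.11.15 (numpy 2.4.6, scipy 1.17.1, pandas 2.3.3) by the rule given in the report, with limits on each gene in raw UMIs. Counts of members were summed per library and tested in R 4.3.3 with edgeR 4.0.16 (limma 3.58.1): filterByExpr, TMM, robust glmQLFit, glmQLFTest, two-sided, Benjamini-Hochberg over all genes tested, called at an adjusted p under 0.05. The difference between members and Cxcl9-zero macrophages was the population by genotype interaction over 8 sums with library as a block. Standard errors of log2 values, in both tests, are the absolute estimate divided by the square root of the quasi-likelihood F. They were not estimated separately, and each p-value comes from the F test itself. DESeq2 1.42.0 was an alternative. Cells are not replicates, and shares were compared over libraries with an exact permutation test. Ratios of members to Cxcl9-zero macrophages used a pseudocount of 1 CPM. Thinning drew 3000 UMIs per barcode at random. The tests were checked on simulated data. Figures used matplotlib 3.10.9.

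The members, the marker lists and the gene lists were chosen with earlier results of these data known. Genes named are the genes of the rule and markers; the 12 largest called rises and falls of genes with a mean of at least 20 CPM and non-overlapping groups; per list, up to 4 called genes with the smallest p and 2 others with the highest level; the 8 largest called differences in each direction; and, without a test, the 15 genes most above and 10 most below Cxcl9-zero macrophages with at least 20 CPM in every library of the higher population. Other called genes of a list are named without values. Alternatives to the threshold on Cxcl9, filters, scaling, depth and libraries are given in the closing section. A few genes, the knocked-out gene among them, are not reported here. Promoters came from RefSeq (GRCm38.p6).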

Additional observations from a re-analysis of the deposited data

Results flagged for a closer look

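For the genes below, the KO-against-WT difference of Cxcl9-expressing macrophages differed from that of Cxcl9-zero macrophages of the same libraries by edgeR's test of the difference (adjusted p under 0.05 over 10644 genes). Values are the log2 KO over WT in members minus that in Cxcl9-zero macrophages, so a negative value means a smaller rise or a larger fall in members.

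More negative in members were the differences of Serpina3g by -2.96, Iigp1 by -2.72, Gm4951 by -2.40, Gbp5 by -2.31, Gbp4 by -2.13, Calhm6 by -2.05, Slamf8 by -2.01, Acod1 by -1.96, Cxcl10 by -1.83, Ly6i by -1.71, Il18bp by -1.48, Ifi47 by -1.46, Gbp7 by -1.27, Fcgr4 by -1.18 and Igtp by -1.02. Serpina3g had 30.0 and 38.6 CPM in KO members, against 40.2 and 68.3 CPM in WT members, and 8.43 and 8.32 CPM in KO, against 1.32 and 1.96 CPM in WT, among Cxcl9-zero macrophages. Calhm6 was lost without WT 1 (adjusted p = 0.0589) or WT 2 (adjusted p = 0.375).

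Genes of class I and class II antigen presentation among them had values of -0.67 for Ciita (lost without KO 1, adjusted p = 0.569), -0.45 for H2-Ab1 and Psmb8, -0.44 for H2-Eb1, -0.42 for H2-Aa and H2-K1 and -0.38 for Cd74. Without KO 1 the adjusted p was 0.0726 for H2-K1 and 0.137 for Psmb8. The membrane protein genes Tmem176a and Tmem176b had values of -2.42 and -1.86.

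More positive in members were Folr2 by 1.80, Slpi by 1.62, Hmox1 by 1.58, Egln3 by 1.54, Spp1 by 1.52, Cxcl1 by 1.48, Ankrd37 by 1.42, Mt2 by 1.33, Clec4d by 1.25, Cxcl2 by 0.94, Bnip3 by 0.87, Ccl6 by 0.82, Ctsd by 0.70 and Lgals3 by 0.54. Folr2, the gene of folate receptor beta, had 86.8 and 43.3 CPM in KO members, against 13.8 and 7.42 CPM in WT members, and was lost without WT 1 (adjusted p = 0.33) or WT 2 (adjusted p = 0.568). Ankrd37, a hypoxia-induced gene, had 43.2 and 36.4 CPM in KO members, against 27.6 and 28.1 CPM in WT members, and 44.5 and 49.8 CPM in KO, against 82.8 and 81.8 CPM in WT, among Cxcl9-zero macrophages.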

How the results depend on the processing

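The share of members kept its direction under every setting tried. KO minus WT ran from 1.76 percentage points over all kept barcodes to 24.2 after thinning to 3000 UMIs with a threshold of 1 Cxcl9 UMI. It was 21.99 with the C3 criterion dropped, and 8.85 to 14.7 when a library was left out. The exact permutation test gave p = 0.333 with all libraries. The 463 genes called in members became 237 with DESeq2, 735 with no filter on low counts (9419 genes became 13198), 195 after members were thinned to 3000 UMIs, 918 with the C3 criterion dropped and 260 with the rule applied after thinning, the last 2 settings chosen after seeing the data; leaving out a library gave 281 to 507. A fit with a replicate block gave 500 calls, of which 416 were among the 463, while the shared numbers were not taken as pairs, since same-numbered libraries deviated together with a correlation of 0.0573. The 319 genes called for the difference became 122 with DESeq2, 176 after thinning and 139 with the rule applied after thinning, and 81 to 466 when a library was left out. Of 102 named genes called in members, 43 were called under every setting, 46 were lost without some library and 52 under some other setting; for the difference these were 20, 35 and 47 of 70. Cd274 alone reversed: its difference of -0.48 became 0.071 after thinning (adjusted p = 0.971). The cause of these changes was not tested. WT 1 was the thinnest sum, with 76 members and 870515 UMIs, so low genes are least precise there.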

Other observations

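Several of the largest genotype differences in members lay outside the gene lists. Tnfrsf9, the gene of the co-stimulatory receptor 4-1BB, rose to 157 and 150.5 CPM in KO, against 52.8 and 35.5 CPM in WT members (log2 1.96 ± 0.17, adjusted p = 8.76e-07, called without each library in turn). Slpi, a secreted inhibitor of neutrophil elastase, rose to 57.6 and 45.8 CPM in KO, against 4.59 and 17.2 CPM in WT members (log2 2.01 ± 0.31, adjusted p = 0.00278; 0.121 with DESeq2). Tspan3, a tetraspanin gene, rose to 97.0 and 69.3 CPM in KO, against 19.5 and 24.6 CPM in WT members (adjusted p = 1.57e-05). Mt2, a metal-binding metallothionein gene, rose to 168 and 148 CPM in KO, against 79.3 and 44.5 CPM in WT members (log2 1.55 ± 0.20, adjusted p = 6.69e-04). Pmp22, a peripheral myelin protein gene, had 105 and 78.0 CPM in KO, against 0 and 8.98 CPM in WT members (adjusted p = 0.02003), and was lost with a replicate block (adjusted p = 0.169) and with DESeq2 (adjusted p = 0.366).

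Among the falls, Tgfbr1, a receptor gene for TGF-beta, had 29.7 and 32.2 CPM in KO, against 78.1 and 97.6 CPM in WT members (log2 -1.47 ± 0.17, adjusted p = 2.00e-05). Htra3, a secreted serine protease gene, had 7.14 and 12.4 CPM in KO, against 33.3 and 60.5 CPM in WT members (log2 -2.37 ± 0.31, adjusted p = 0.00145), and 9.63 and 10.8 CPM in KO, against 56.2 and 56.3 CPM in WT, among Cxcl9-zero macrophages. Stard4, a sterol carrier gene outside the cholesterol-synthesis list, fell to 13.3 and 14.1 CPM in KO, against 42.5 and 37.5 CPM in WT members (log2 -1.44 ± 0.21, adjusted p = 2.53e-04), and so did the actin regulator gene Fgd2, with 15.6 and 16.6 CPM in KO, against 47.1 and 44.1 CPM in WT members (adjusted p = 1.46e-04).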
